A study of Homo sapiens with 24 samples.

Results

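The expression of 9 immediate-early genes was followed over 6 HAP1 lines and 3 treatment arms: IER2, IER3, IER5, NR4A1, NR4A2, NR4A3, SRF, CCN1 (also CYR61) and CCN2 (also CTGF). They were taken by name, each through the probe set of its symbol with the highest mean, and make up 9 of the 22109 genes with a probe set of 1 symbol and 9 of the 17339 genes tested. HAP1 is a near-haploid human cell line derived from a chronic myeloid leukaemia line that grows attached to plastic. Cells were given SA100 (NaAsO2, sodium arsenite, at 100 µM for 2 h), lomustine (an alkylating and crosslinking chemotherapy drug, at 200 µM for 2 h) or no drug. The SA100 arrays carry that name in their titles but lomustine in their agent field, and were grouped by title. The 6 lines were S51A (whose name is that of the change which removes the stress-phosphorylated serine of the translation factor eIF2-alpha), HRI, GCN2, PKR and PERK (each named for the eIF2-alpha kinase removed) and the unedited PAR. All were purchased lines, and whether each is 1 clone is not given in the sources used here.

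SA100 had 6 arrays, 1 for each line, lomustine had 9 and no drug had 9. PAR, S51A and HRI had a pair of arrays, lettered A and B, with lomustine and without drug, and GCN2, PKR and PERK had 1. The letters are not said to mark separate cultures, so the spread between lettered arrays may be technical. For tests within lines, p-values measure that spread (6 residual degrees of freedom). For the comparisons across lines (16 residual degrees of freedom), p-values also measure how the response differed between lines. Values were log2 intensities, with array medians from 2.34 to 2.58, and were compared only within a probe set. S51A with lomustine B stood apart, with 8.37% of its probe sets departing from the median of the 24 arrays by over 1 log2 unit, against 3.16% for the next array. The kinase transcripts did not check the line names: EIF2AK1 differed by -0.03 in HRI, EIF2AK2 by -0.19 in PKR, EIF2AK3 by -0.59 in PERK and EIF2AK4 by -0.25 in GCN2, each against PAR, with limma adjusted p between 0.818 and 1. Of 7 blood markers on the array, 4 had medians below the median of all values (2.42) and the highest was HBG1 at 2.77. Of 6 fibroblast markers, 5 lay below it and COL1A1 was at 3.92. Of 7 epithelium markers 2 lay below it, and EPCAM, KRT8, KRT14, KRT18 and KRT19 lay above, the highest being KRT8 at 3.65.

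Immediate-early genes are transcribed within minutes of a stimulus from factors already present in the cell, and their transcripts are mostly short-lived. Serum response factor (SRF) binds CArG boxes in many of their promoters, with partners that answer to MAP kinase signalling or to actin, and SRF is itself a gene of this class. Arsenite and DNA damage are known inducers of the class through stress-activated kinases, and arsenite is also a classical cause of eIF2-alpha phosphorylation and of stress granules, the cytoplasmic bodies that hold untranslated mRNA.

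RefSeq promoter windows (GRCh38.p14) were found for 6 of the genes: IER2, IER5, NR4A1, NR4A3, SRF and CCN2. Of these, 4 are printed. In the arsenite values given further on IER5, NR4A3 and CCN2 rose and SRF did not pass. IER2, with a single match, and NR4A1, with none, are not printed and also rose. A link between matches and changes was not tested. Both strands of the 250 bases before each start site were searched for the CArG box, the cAMP response element TGACGTCA, its shorter core TGACG, the AP-1 site TGANTCA, the TEAD site CATTCC and the heat shock factor site GAANNTTC. A core inside a full cAMP response element would be counted for both. In the sequences below, written 5′ to 3′ on the strand of the gene, capitals mark the matches.
SRF, chr6:43171019-43171268, + strand: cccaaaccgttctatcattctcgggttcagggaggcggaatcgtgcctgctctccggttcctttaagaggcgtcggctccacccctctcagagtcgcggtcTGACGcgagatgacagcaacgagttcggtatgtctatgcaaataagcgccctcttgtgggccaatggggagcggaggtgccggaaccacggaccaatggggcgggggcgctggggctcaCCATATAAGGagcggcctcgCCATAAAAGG
IER5, chr1:181088450-181088699, + strand: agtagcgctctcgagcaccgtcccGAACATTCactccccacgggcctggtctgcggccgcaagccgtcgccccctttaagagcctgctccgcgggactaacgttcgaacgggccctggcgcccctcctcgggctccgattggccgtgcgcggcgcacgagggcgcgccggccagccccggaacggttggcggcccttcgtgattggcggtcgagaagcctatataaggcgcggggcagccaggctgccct
NR4A3, chr9:99821635-99821884, + strand: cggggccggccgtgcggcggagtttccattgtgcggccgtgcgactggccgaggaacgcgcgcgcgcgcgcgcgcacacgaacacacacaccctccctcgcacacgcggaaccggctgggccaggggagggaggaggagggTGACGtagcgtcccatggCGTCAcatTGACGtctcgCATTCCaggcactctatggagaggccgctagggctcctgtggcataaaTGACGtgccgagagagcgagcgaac
CCN2, chr6:131951373-131951622, - strand: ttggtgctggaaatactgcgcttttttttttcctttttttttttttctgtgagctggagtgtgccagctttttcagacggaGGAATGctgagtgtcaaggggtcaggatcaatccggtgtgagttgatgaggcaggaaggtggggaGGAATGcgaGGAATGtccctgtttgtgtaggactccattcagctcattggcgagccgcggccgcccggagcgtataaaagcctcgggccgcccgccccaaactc

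The SRF window held 2 CArG boxes, beginning 30 and 10 bases before the start, and a cAMP core at 149 bases. A CArG box occurred in 1.16% of the 35114 RefSeq promoters. IER5 held 1 heat shock factor site, 226 bases upstream, a match found in 5.78% of promoters. NR4A3 held 4 cAMP cores, at 109, 91, 83 and 25 bases, where 21.2% of promoters held at least 1, and a TEAD site at 73 bases. CCN2 held 3 TEAD sites on the reverse strand, at 169, 104 and 95 bases, where 11.9% of promoters held at least 1. The IER2 window had a single cAMP core at 140 bases, and neither NR4A1 window nor the second SRF window had a match to any of the motifs. The NR4A1 windows ended at chr12:52022831 and chr12:52037714. Start sites of these genes without a window here, where there are any, were not searched. No window of these genes held a full cAMP response element (1.65% of promoters) or an AP-1 site (6.57%). A match is a run of letters and not a measured binding site.

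The first comparison set SA100 against no drug over the 6 lines. Of the 9 genes, 7 rose and none fell: IER2 5.11-fold, CCN1 3.42-fold, CCN2 2.11-fold, IER5 1.83-fold, NR4A1 1.81-fold, NR4A3 1.59-fold and IER3 1.46-fold. NR4A2 and SRF did not pass the test. Over all genes tested 2.11% rose and 0.952% fell, with limma on arm and line and Benjamini-Hochberg adjustment at 0.05. The median log2 change was 0.86 over the 9 genes and 0.04 over all genes tested. The 9 genes were chosen with earlier results of these data known, so the shares and medians beside one another are a description. The overall count was 365 higher and 165 lower, and 519 higher and 376 lower when the table was quantile normalized again. Since RNA came from whole cultures, more cells with a transcript and more transcript per cell cannot be told apart, nor can fewer cells and less RNA per cell.

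**Figure D1:**
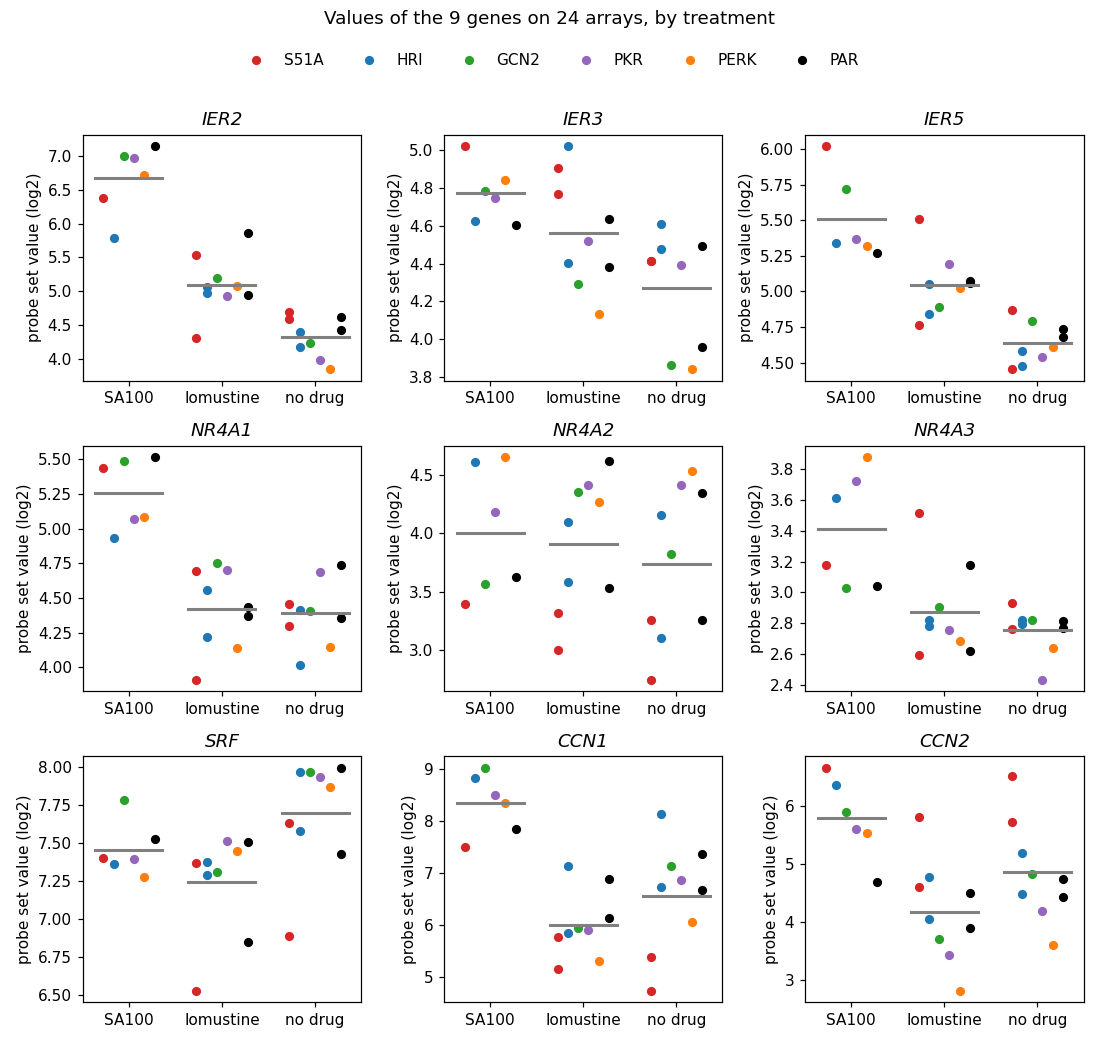
Log2 intensity of the 9 genes in every array, by arm (SA100 6 arrays, lomustine 9, no drug 9), coloured by line, with a bar at the mean of each arm. IER2, IER5, NR4A1 and NR4A3 have every SA100 array above every array without drug, and the arms overlap for the other genes.

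IER2, a nuclear immediate-early protein induced by growth factors and stress, changed most. Its log2 intensity ran from 5.78 through a median of 6.85 to 7.16 in SA100 cells, against 3.84, 4.40 and 4.69 (lowest, median and highest) without drug. The lowest SA100 array lay more than 1 log2 unit above the highest untreated one. The log2 change was 2.35 (SE 0.199, limma adjusted p = 9.05e-08, higher in 6 of 6 lines). Line by line it was 1.50 in HRI, 1.74 in S51A, 2.63 in PAR, 2.77 in GCN2, 2.88 in PERK and 3.0 in PKR. With 1 SA100 array in each line, these differences between lines carry no test.

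IER5 is known to promote heat shock factor activity. It ran from 5.27 through 5.35 to 6.02 in SA100 cells, against 4.45, 4.61 and 4.87 without drug. The arms did not overlap, and the change was 0.87 (SE 0.12, limma adjusted p = 0.000102). It was smallest in PAR at 0.56 and largest in S51A at 1.36, where the SA100 array was the highest of all 24 at 6.02. IER3, a stress-induced regulator of cell survival, ran from 4.60 through 4.77 to 5.02 in SA100 cells, against 3.84, 4.41 and 4.61 without drug. Only the tails of the arms overlapped for IER3, and its change was 0.54 (SE 0.121, limma adjusted p = 0.0154). This call was lost without the SA100 array of GCN2 (0.49, adjusted p = 0.066) or of PERK (0.46, adjusted p = 0.0664). Line by line the IER3 change ran from 0.08 in HRI to 1.01 in PERK.

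The array carried 10 IER3 probe sets, which did not all give the same picture. Identical values were held by 4 of them, the chosen one included. Another 4 were identical to each other, had a lower mean (2.93, against 4.51 for the chosen set) and differed by 0.13 between SA100 and no drug. The remaining 2 followed the chosen one across arrays (r = 0.938 and 0.942 over 24 arrays, a description) and differed by 0.53 and 0.41. These are plain differences of arm means, not adjusted for line, and that of the chosen set was 0.50.

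NR4A1, NR4A2 and NR4A3 encode orphan nuclear receptors that act as transcription factors without a known natural ligand. NR4A1 ran from 4.93 through 5.26 to 5.52 in SA100 cells, against 4.02, 4.40 and 4.74 without drug. No SA100 array reached down to an untreated one, and the change was 0.86 (SE 0.127, limma adjusted p = 0.000279), from 0.38 in PKR to 1.08 in GCN2. NR4A3 ran from 3.03 through 3.40 to 3.88, against 2.43, 2.79 and 2.93, close to the median of all values (2.42) without drug. The NR4A3 arms did not overlap either, with a change of 0.67 (SE 0.155, limma adjusted p = 0.0203), from 0.21 in GCN2 to 1.30 in PKR. It lost its call without any of 5 arrays, those of SA100 in HRI, PKR and PERK and of no drug in PKR and PERK (0.56 to 0.63, adjusted p between 0.0556 and 0.0815).

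NR4A2 gave a different picture. It ran from 3.40 through 3.90 to 4.66 in SA100 cells, against 2.74, 3.82 and 4.54 without drug, so that the arms lay over one another. Its change was 0.17 (95% interval -0.28 to 0.62, limma adjusted p = 0.756), with 3 lines higher and 3 lower, between -0.26 in GCN2 and 0.98 in HRI.

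SRF ran from 7.28 through 7.39 to 7.78 in SA100 cells, against 6.89, 7.86 and 7.99 without drug. The arms overlapped, and the change was -0.28 (95% interval -0.59 to 0.03, limma adjusted p = 0.367), with values lower in 5 of 6 lines and higher in S51A at 0.14. The SRF transcript therefore gave no call in either direction at 2 h.

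CCN1 and CCN2 encode secreted matricellular proteins and are textbook targets of the YAP and TEAD factors as well as of SRF. CCN1 ran from 7.51 through 8.43 to 9.04 in SA100 cells, against 4.72, 6.74 and 8.14 without drug. The arms overlapped only through HRI without drug A at 8.14, since the next untreated array was at 7.37. Its change was 1.77 (SE 0.275, limma adjusted p = 0.000466), higher in 6 of 6 lines, from 0.82 in PAR to 2.46 in S51A. CCN2 ran from 4.69 through 5.74 to 6.65, against 3.61, 4.74 and 6.51. Both S51A arrays without drug (6.51 and 5.71) lay among the SA100 arrays. HRI A (5.18), GCN2 (4.83) and PAR B (4.74) without drug also lay above the lowest SA100 array, that of PAR at 4.69. The arms thus overlapped more widely than for CCN1, and not through S51A alone. The CCN2 change was 1.08 (SE 0.238, limma adjusted p = 0.0145), from 0.11 in PAR to 1.91 in PERK. Without the SA100 array of PKR (1.01, adjusted p = 0.0531) or of PERK (0.92, adjusted p = 0.0643) CCN2 did not pass.

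**Figure D2:**
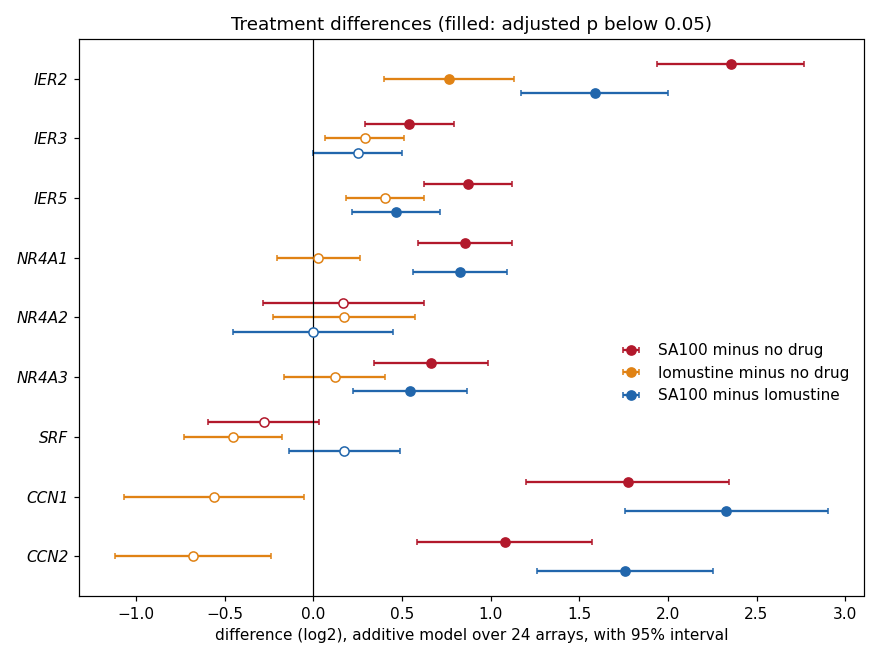
Log2 difference of each gene for SA100 minus no drug, lomustine minus no drug and SA100 minus lomustine, with 95% intervals from limma over 24 arrays. IER2 lies highest for SA100 minus no drug at 2.35, and lomustine minus no drug passes the test for IER2 alone at 0.77.

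Of the 9 genes, 4 (IER2, IER5, NR4A1 and NR4A3) had every SA100 array above every untreated one, where 1.11% of all genes tested did. The SA100 calls for IER2, IER5, NR4A1 and CCN1 held whichever of the 24 arrays was left out.

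The second comparison set lomustine against no drug. Only IER2 passed the test, 1.70-fold higher. Over all genes tested 0.248% rose and 0.779% fell (43 higher and 135 lower, but 101 higher and 87 lower when the table was quantile normalized again). At an unadjusted p under 0.05 the values of 3 of the genes were higher with lomustine (IER2, IER3 and IER5) and those of 3 were lower (SRF, CCN1 and CCN2), beside 2.62% and 11.6% of all genes tested at that level. The median change over the 9 genes was 0.12, and -0.04 over all genes tested.

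IER2 ran from 4.30 through 5.06 to 5.86 with lomustine, against 3.84, 4.40 and 4.69 without drug. The arms overlapped only through S51A with lomustine B at 4.30, since the next lomustine array was at 4.93. In S51A lomustine gave 5.53 (A) and 4.30 (B), against 4.69 and 4.58 without drug. Its change was 0.77 (SE 0.176, limma adjusted p = 0.0362), higher in 6 of 6 lines, between 0.28 in S51A and 1.23 in PERK. Leaving out 1 array at a time kept the call in 12 of 24 cases, with changes from 0.70 to 0.89 and adjusted p between 0.00452 and 0.0929. Without S51A with lomustine B, the array that stood apart, it was 0.89 (adjusted p = 0.00452). With arrays centred on their medians IER2 missed the threshold (0.75, adjusted p = 0.0874).

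IER5 was at 4.76 to 5.51 with lomustine (median 5.05), against 4.45 to 4.87 without drug (median 4.61), and higher in 6 of 6 lines. Its change of 0.41 missed the threshold (SE 0.106, limma adjusted p = 0.0696). It passed without S51A with lomustine B (0.47, adjusted p = 0.0158). IER3 had a change of 0.29 (SE 0.107, limma adjusted p = 0.214), also higher in 6 of 6 lines. The 3 IER genes thus had values on the same side in every line, with a call for IER2 alone. How many of all genes tested lay on the same side in every line was not counted, here or for the other comparisons.

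CCN2, CCN1 and SRF had lower values with lomustine. CCN2 ran from 2.81 through 4.05 to 5.81 with lomustine, against 3.61, 4.74 and 6.51 without drug, and was lower in 6 of 6 lines, between -1.13 in GCN2 and -0.40 in PAR. The arms overlapped, and the change of -0.68 did not pass (95% interval -1.12 to -0.24, limma adjusted p = 0.133). SRF ran from 6.52 through 7.36 to 7.51, against 6.89, 7.86 and 7.99, and was also lower in 6 of 6 lines, between -0.66 in GCN2 and -0.31 in S51A. Its change was -0.45 (SE 0.134, limma adjusted p = 0.11), and it passed without S51A with lomustine A (-0.52, adjusted p = 0.0462). CCN1 was lower in 5 of 6 lines, with a change of -0.56 (SE 0.244, limma adjusted p = 0.302). S51A was the exception for CCN1, at 0.41.

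None of the NR4A genes passed with lomustine. NR4A1 ran from 3.91 through 4.43 to 4.75 with lomustine, against 4.02, 4.40 and 4.74 without drug, a change of 0.03 (SE 0.113, limma adjusted p = 0.941). NR4A2 had 0.17 (adjusted p = 0.73) and NR4A3 0.12 (adjusted p = 0.737). The arms overlapped for all 3, and no one of the 9 genes had every lomustine array above every untreated one, where 0.0634% of all genes tested did.

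**Figure D3:**
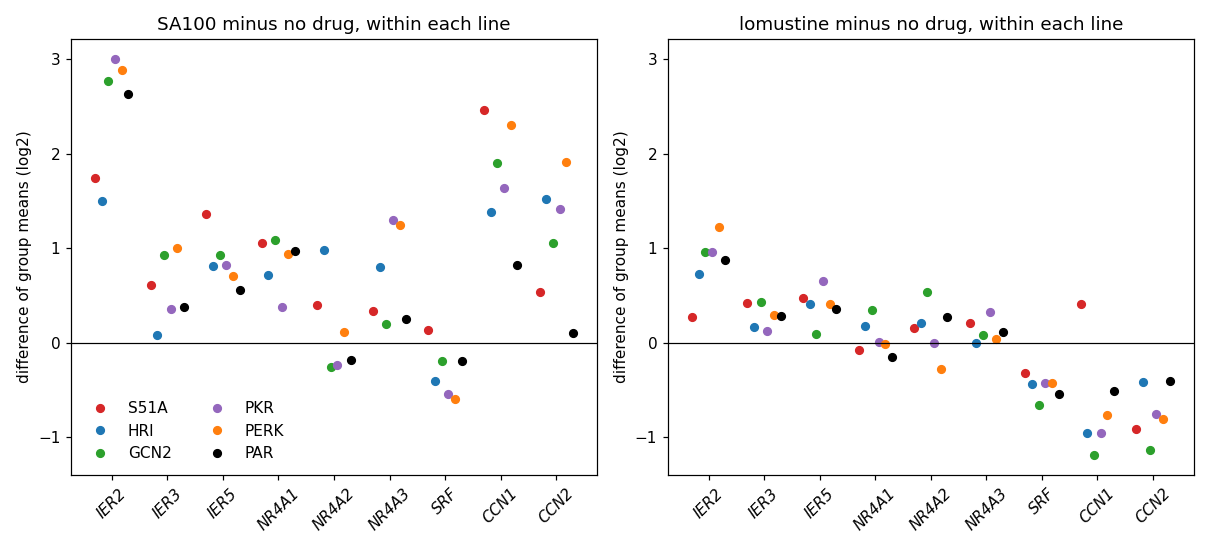
Log2 difference of each gene in each line, for SA100 minus no drug and lomustine minus no drug, with 1 to 2 arrays behind each group mean and 1 point per line. IER2 is above 0 in every line in both, and CCN2 and SRF are below 0 with lomustine in every line.

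The third comparison set SA100 against lomustine directly. Of the 9 genes, 6 were higher in SA100 cells and none was lower. Over all genes tested 5.48% were higher and 0.473% lower, a larger background than in the other comparisons (950 higher and 82 lower, or 642 higher and 323 lower when the table was quantile normalized again). CCN1 differed by 2.33 (SE 0.275, limma adjusted p = 2.44e-05, 5.03-fold), CCN2 by 1.76 (SE 0.238, adjusted p = 0.000137, 3.38-fold) and IER2 by 1.59 (SE 0.199, adjusted p = 5.02e-05). The first 2 had lower values with lomustine than without drug, so that their estimates were larger between the 2 treatments than between SA100 and no drug, while that of IER2 was smaller.

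NR4A1 differed by 0.83 (SE 0.127, limma adjusted p = 0.00055), NR4A3 by 0.55 (SE 0.155, adjusted p = 0.039) and IER5 by 0.47 (SE 0.12, adjusted p = 0.0236). NR4A1 and CCN1 had every SA100 array above every lomustine array, where 1.39% of all genes tested did. The NR4A3 call was kept in 14 of 24 cases when 1 array was left out, and missed without S51A with lomustine B (0.50, adjusted p = 0.0503). IER5 missed without GCN2 with lomustine (0.42, adjusted p = 0.0601), or without the SA100 array of S51A (0.37, adjusted p = 0.0864) or of GCN2 (0.43, adjusted p = 0.0701). IER3 (0.25, adjusted p = 0.233), SRF (0.17, adjusted p = 0.548) and NR4A2 (-0.00, adjusted p = 0.997) did not pass. These 3 comparisons share arrays and are not independent of one another.

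The line terms asked whether the genes stood at another level in an edited line than in PAR, over all arms. Each edit was present in 1 line, so these p-values do not measure the spread between independently edited lines. A difference from PAR cannot be told apart as one of the edit or of the line. In S51A, CCN2 was higher and CCN1 lower, while 1.29% of all genes tested were higher and 0.894% lower. The 2 CCN genes thus differed from PAR in opposite directions in the same arrays. No other gene of the 9 passed in S51A, and none in HRI, GCN2, PKR or PERK, where 0.144%, 0.0692%, 0% and 0.179% of all genes passed in either direction. At an unadjusted p under 0.05 there were 3 of the 9 in S51A, beside 9.74% of all genes tested, and 1 in HRI, beside 7.61%. Of 7 epithelium markers 1 passed in S51A: EPCAM, a surface adhesion protein of epithelia, was 2.15 higher (SE 0.382, limma adjusted p = 0.00172). It was at 3.92 to 6.66 in the S51A arrays, against 2.66 to 3.01 in those of PAR. The S51A arrays were not alike: EPCAM was at 4.16 (no drug A), 3.92 (lomustine B) and 4.02 (SA100), but at 6.66 (no drug B) and 6.35 (lomustine A). The summed signal of the 7 markers, as log2, was 5.99 to 7.16 in S51A, against 5.62 to 5.96 in PAR, and its part in the CCN1 and CCN2 differences was not tested.

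CCN2 had 6.65 with SA100, 4.60 and 5.81 with lomustine and 6.51 and 5.71 without drug in S51A cells. PAR cells had 4.69 with SA100, 4.49 and 3.89 with lomustine and 4.43 and 4.74 without drug. The S51A arrays lay above the PAR arrays of the same arm in all 3 arms, by little for lomustine A. The difference was 1.41 (SE 0.284, limma adjusted p = 0.00582, 2.66-fold), and it held whichever array was left out.

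CCN1 had 7.51 with SA100, 5.14 and 5.77 with lomustine and 5.37 and 4.72 without drug in S51A cells. In PAR cells it had 7.84 with SA100, 6.13 and 6.88 with lomustine and 6.67 and 7.37 without drug. Every S51A array lay below those of PAR in the same arm, and the gap was widest without drug. The difference was -1.28 (SE 0.327, limma adjusted p = 0.0401, 2.42-fold lower). It stayed past the threshold in 10 of 24 cases when 1 array was left out (-1.51 to -1.05, adjusted p between 0.0107 and 0.153), and did so without S51A with lomustine B (-1.48, adjusted p = 0.0107). CCN1 missed the threshold with no filter on low values (adjusted p = 0.0556) and with the table quantile normalized again (adjusted p = 0.0636) or centred on array medians (adjusted p = 0.0519).

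**Figure D4:**
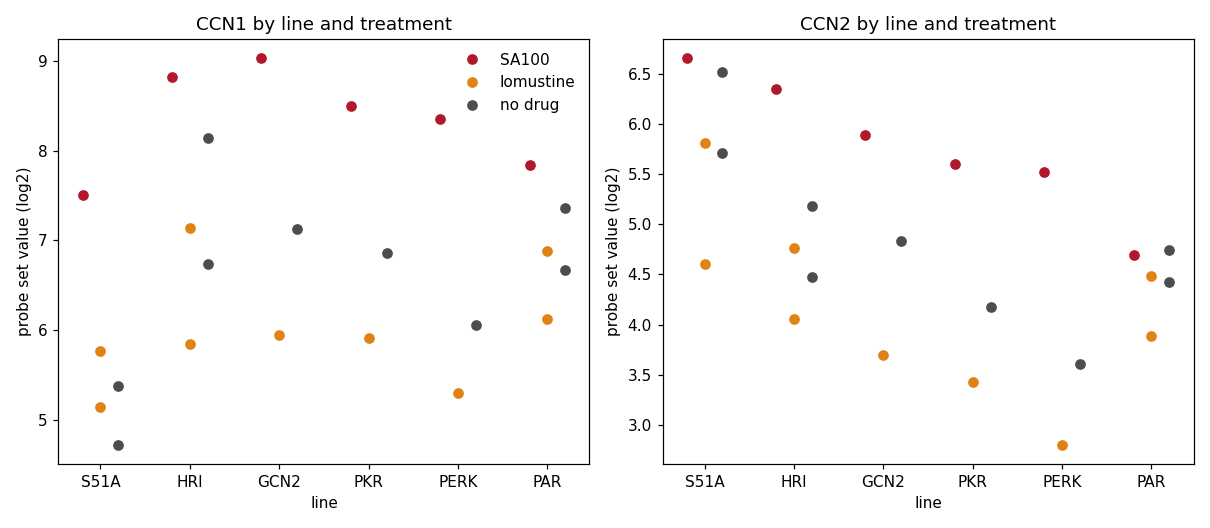
Log2 intensity of CCN1 and CCN2 in every array by line, coloured by arm. S51A has the lowest untreated CCN1 values (5.37 and 4.72) and the highest untreated CCN2 values (6.51 and 5.71).

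Without drug alone, S51A minus PAR was -1.97 for CCN1 (SE 0.543, limma adjusted p = 0.449) and 1.53 for CCN2 (SE 0.45, limma adjusted p = 0.568) in the fit with 1 mean per group. Neither passed; their unadjusted p were 0.00417 and 0.0063, where 2.67% of all genes tested had one under 0.05 and 0.323% passed after adjustment. The lomustine response of CCN1 in S51A minus that in PAR was 0.92 (95% interval -0.78 to 2.62, limma adjusted p = 1). None of the 9 genes passed for lomustine within PAR, S51A or HRI, for the S51A or HRI response minus that of PAR, or for HRI against PAR without drug. The shares of all genes that passed were 0%, 0.0115% and 0% for lomustine within PAR, S51A and HRI, and 0% for the other 3 contrasts. In PAR, where IER2 had 4.94 and 5.86 with lomustine and 4.62 and 4.43 without drug, the change of 0.87 (SE 0.389, limma adjusted p = 1) was the only one of the 9 with an unadjusted p under 0.05, beside 2.90% of all genes tested.

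The spread between lettered arrays differed between the genes. The residual SD of the fit with 1 mean per group was 0.678 for CCN1, 0.585 for NR4A2, 0.545 for CCN2, 0.454 for IER2 and 0.425 for SRF. For NR4A3, NR4A1, IER5 and IER3 it was 0.317, 0.298, 0.257 and 0.253, against a median of 0.292 over all genes tested. CCN1, for example, was at 8.14 and 6.74 in the HRI arrays without drug, a gap wider than its lomustine difference in any line.

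NR4A2 differed between repetitions and lines more than between arms. In PAR the A arrays were at 3.53 with lomustine and 3.26 without drug, and the B arrays at 4.62 and 4.35. In HRI the arrays with lomustine were at 4.10 (A) and 3.58 (B), and those without drug at 3.10 (A) and 4.15 (B). The letter with the higher value was thus B in both PAR arms, and in HRI it was A with lomustine and B without drug. All 5 S51A arrays lay between 2.74 and 3.40, where the lowest array of any other line was at 3.10, yet the line term of -0.73 did not pass (SE 0.259, limma adjusted p = 0.214).

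**Figure D5:**
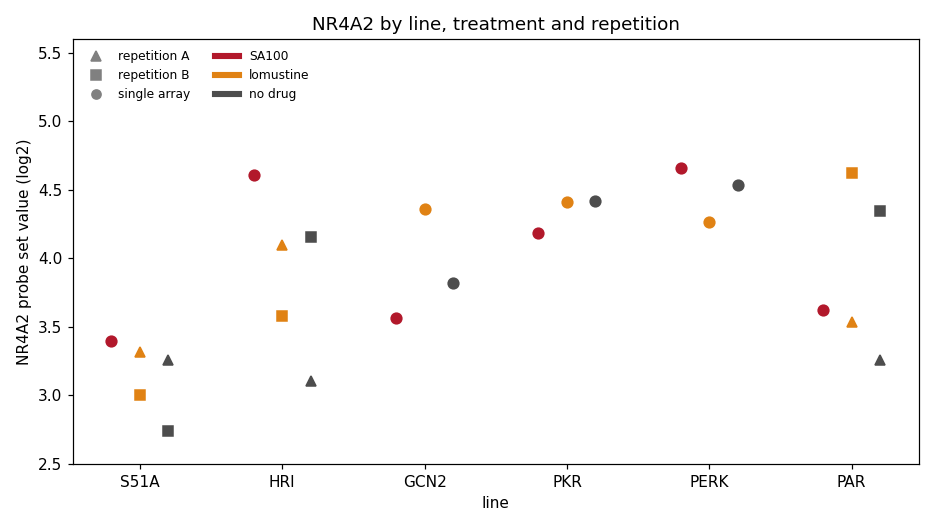
Log2 intensity of NR4A2 in every array by line, with the letter of the array. The PAR arrays fall into A at 3.26 to 3.53 and B at 4.35 to 4.62 in both arms with 2 arrays, and the S51A arrays lie between 2.74 and 3.40.

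Other genes of the class gave a setting for these values. Of 38 other immediate-early genes tested, 23 rose with SA100 and none fell (median 0.66), led by JUN at 6.21, EGR1 at 4.85, DUSP1 at 3.94 and FOS at 3.68. With lomustine 10 rose and none fell (median 0.19), led by EGR1 at 3.57, JUN at 2.11, GADD45B at 1.71 and DUSP1 at 1.63. Of the 38, 20 were higher with SA100 than with lomustine, and RHOB was the only one that differed in S51A (1.79 higher). Over all genes tested 2.11% rose and 0.952% fell with SA100, and 0.248% rose and 0.779% fell with lomustine. SA100 was higher than lomustine for 5.48%, and 2.18% differed in S51A in either direction. The S51A count of this list lies near that share. The IER2 changes of 2.35 with SA100 and 0.77 with lomustine were smaller in estimate than those of EGR1, JUN and DUSP1, a difference between genes that was not tested.

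Among 21 targets of YAP and TEAD other than CCN1 and CCN2, 4 rose with SA100: the kinase gene NUAK2 by 1.20, GADD45A by 1.18, AMOTL2 by 0.74 and LATS2 by 0.60. FJX1 fell by 0.88. The remaining 16 did not pass, and the median was 0.20. With lomustine only FJX1 passed, with a change of -0.95. With SA100 7 were higher than with lomustine, led by ANKRD1 at 1.51, NUAK2 at 1.45, F3 at 1.44 and TGFB2 at 1.04. TGFB2, which encodes a secreted growth factor, was the single one that differed in S51A, 1.88 higher, the side on which CCN2 lay. Of all genes tested 2.18% differed there, so 1 gene of this list is not a result about the list.

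Of 14 cytoskeletal genes known to depend on SRF and its actin-regulated partners, none passed with SA100 (median 0.05). With lomustine 3 fell: ACTB by 0.85, MYH9 by 0.43 and VCL by 0.42, with a median of -0.18 for the list. The ACTB probe set had a low mean, 4.49 without drug and 3.63 with lomustine. Whether it measures the ACTB transcript well was not tested. SA100 was higher than lomustine for 4 (FHL2 and TPM1 by 0.71 each, VCL by 0.40 and CNN2 by 0.38). Of 16 genes of the ELK and MRTF partners of SRF, of CREB and its coactivators, and of YAP and TEAD, none passed in either treatment, and CRTC1 was 0.50 higher with SA100 than with lomustine. Of CCN3 to CCN6, IER5L and IER3IP1, 5 were tested and none passed in any of these comparisons.

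Across the 18 group means, which share arms, lines and arrays, the transcripts whose values ran most nearly with IER2 were FOS (r = 0.966) and DUSP1 (r = 0.962). NR4A1 ran with JUND (r = 0.922) and JUNB (r = 0.906), and IER5 with ZNF473 (r = 0.912) and the chaperone gene DNAJB1 (r = 0.897). The nearest to CCN1 were NUAK2 (r = 0.928) and CNN3 (r = 0.924), whereas CCN2 lay nearest to LIN28B (r = 0.929) and SEC61B (r = 0.913). NR4A2 ran with CPE (r = 0.922) and HUNK (r = 0.875), and NR4A3 with TRIM26 (r = 0.905) and IP6K2 (r = 0.899). SRF was closest to WRNIP1 (r = 0.806) and FLVCR1 (r = 0.805), and IER3 to KDM6A (r = 0.832) and PLEKHO2 (r = 0.819), the weakest likenesses of the 9. These r describe 18 points chosen as the highest over all genes and carry no test.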

How the data were processed

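Transcripts were measured on 24 Affymetrix arrays of HAP1 cells. The authors deposited 1 table of log2 values for 53617 probe sets, made with RMA and the R package affy per the submitters' processing notes, which name no version. Filters and the genome build of the array are not given in the sources used here. Values ran from 0.71 to 12.47, and arrays give no read depth, so the number of arrays limits the precision.

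Probe sets were named through the array's annotation: 25713 were annotated, 23558 had 1 symbol and were kept, and 2155 with several were left out. The probe set with the highest mean stood for each of 22109 genes. Genes at or above 2.42, the median of all values, on 2 or more arrays were tested, 17339 in all. All 9 genes passed, in each arm with 0 values below that level.

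Tests used limma 3.58.1 in R 4.3.3, two-sided; p-values were adjusted by Benjamini-Hochberg across the 17339 genes, and 0.05 was the threshold. Terms for arm and line over 24 arrays (16 residual degrees of freedom) gave the comparisons across lines. One mean for each of 18 groups (6 residual degrees of freedom) gave those within lines, where the spread of the 12 single-array groups is taken from the 6 with a pair of arrays. Both models were run on simulated data with independent noise and no differences between lines. Those data held no structure shared between arrays, so they cannot show how the tests behave where arrays share it. The letters A and B did not pair arrays alike in every line. Across genes, the B minus A difference with lomustine followed that without drug with r of 0.334 (PAR), -0.388 (S51A) and -0.561 (HRI). The sign was negative in S51A and HRI, where the A array with lomustine thus ran with the B array without drug. A block by letter does not match that likeness, and no factor shared in this crossed way was modelled.

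The 9 genes and the gene lists were chosen with earlier results of these data known. Beside the 9 genes, the text names up to 4 genes past the test from each list with the largest changes, and for each of the 9 the 2 tested genes with the highest r over 18 group means. Lists covered other immediate-early genes, YAP and TEAD targets, SRF cytoskeletal targets, partners of SRF, CREB and YAP, relatives by name, and markers of blood, epithelium and fibroblasts. No blood or fibroblast marker passed in any comparison across lines or in S51A, and of the 7 epithelium markers EPCAM alone did, in S51A. Alternatives were other filters, normalizations and models, a replicate block, and leaving out lines or arrays.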

Additional observations from a re-analysis of the deposited data

How the results depend on the processing

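Of the counts of the 9 genes past the test, SA100 against no drug (7 higher) gave 4 without the PERK line and 4 as the mean of line-wise contrasts. It gave 5 without HRI, 5 without GCN2 and 5 without PKR. SA100 against lomustine (6 higher) gave 3 as the mean of line-wise contrasts, and 4 under quantile normalization or with centred arrays. Lomustine against no drug (1 higher, IER2) gave 2 under quantile normalization and 2 without PAR lomustine A and S51A lomustine B. It gave 0 with arrays centred on their medians, 0 without PAR, HRI, GCN2, PKR or PERK, and 0 as the mean of line-wise contrasts. Without those same 2 arrays 1 was lower, CCN2 at -0.89 (limma adjusted p = 0.0349), against 0. S51A lower (1, CCN1) gave 0 with no filter, 0 under quantile normalization and 0 with centred arrays. Leaving out 1 array at a time gave 4 to 7 higher for SA100 against no drug, 4 to 6 for SA100 against lomustine, 0 to 2 higher and 0 to 1 lower for lomustine, and 0 to 1 lower for S51A. With the letter as a replicate block over the 12 lettered arrays, 0 were higher with lomustine (IER2 0.63, SE 0.201, limma adjusted p = 0.577). Since the letters ran one way in PAR and the other way in S51A and HRI, this block cannot settle the IER2 call. In values that did not pass, the sign turned for NR4A2, SA100 minus lomustine, to 0.016 with only those arms, 0.10 without PAR, 0.13 without GCN2 and 0.044 without PKR (-0.18 to 0.11 leaving out 1 array). It turned for NR4A1 with lomustine to -0.013 without HRI, -0.011 without GCN2 and -0.016 under the replicate block (-0.015 to 0.10 leaving out 1 array), and for NR4A2 with SA100 to -0.011 without HRI (-0.0055 to 0.28 leaving out 1 array). In S51A, leaving out 1 array gave -0.20 to 0.011 for NR4A1 and -0.047 to 0.21 for NR4A3. The cause was not tested. The SA100 calls against no drug for IER2, IER5, NR4A1 and CCN1 held under every alternative run, as did those of IER2, CCN1 and CCN2 against lomustine and of CCN2 in S51A. The SA100 call against no drug was kept in 10 of 15 alternatives for NR4A3, 10 of 15 for CCN2 and 11 of 15 for IER3. NR4A3 lost it with centred arrays (0.64, limma adjusted p = 0.0596), and without HRI, PKR or PERK. CCN2 lost it without HRI, GCN2, PKR or PERK, and IER3 without S51A, GCN2 or PERK. All 3 lost it as the mean of line-wise contrasts. IER5 against lomustine kept its call in 8 of 15, and lost it under quantile normalization (0.31, limma adjusted p = 0.12). NR4A3 against lomustine kept its call in 7 of 15. It lost it under quantile normalization (0.50, limma adjusted p = 0.0788) and with centred arrays (0.54, limma adjusted p = 0.0823). Every SA100 group is 1 array, so no line's own arsenite response could be tested, and NR4A3 lay close to the median of all values.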
